A study of Caenorhabditis elegans with 4 samples.

Results

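The X chromosome carried 241 LAG-1 peaks that lay where the input signal was low, out of 2121 peaks in the deposited lists. FLAG 1 held 97 of them, GFP 2 held 120 and GFP 3 held 24. These names stand for the 3 immunoprecipitation (IP) libraries, and the numbers of the GFP libraries are those of the labels. A member is a peak on X whose local background, recovered as the pileup plus 1 over the fold enrichment, minus 1, was at most 3 times the genome mean of its own list. The genome mean is the number of tags expected over any base, and it was 7.18 tags in FLAG 1, 4.42 in GFP 2 and 5.02 in GFP 3. Fold enrichment is the authors' value for each peak, the pileup plus 1 over the background plus 1 at a summit, and the summit with the highest pileup stood for each peak. The fold of a peak is used here to describe and rank peaks within its own list.

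LAG-1 is the C. elegans member of the CSL family (CBF1, Su(H), LAG-1), the DNA-binding proteins at the end of the Notch pathway. When the receptors LIN-12 or GLP-1 meet a ligand, their cleaved inner domain joins LAG-1 and the Mastermind-like protein SEL-8 on target genes and switches them on. The worm X is present as a pair in hermaphrodites and singly in males, is bound by the dosage compensation complex in hermaphrodites, and carries few genes that are active in the germ line.

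Worms of the Bristol strain were synchronised by bleaching, grown to the L4 larval stage on NA22 bacteria and used whole. Chromatin was recovered with an antibody to FLAG in 1 library and with an antibody to GFP in 2 libraries, and 1 input DNA library from whole worms served all 3 as the control. The design text counts the 3 IPs as biological replicates. The sources used here do not describe the construct that carried the tags, and every cell type of the animal entered each library. After removal of duplicates the IP libraries kept 6858855 to 12186235 tags, and the input kept 20457188. GFP 3 kept more tags than GFP 2 (9404288 against 6858855) and had the highest share of duplicates (rate 0.27).

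The limit on background cut through few members. In FLAG 1 the member with the highest background lay at 2.79 times the genome mean and the first peak beyond the limit at 3.20 times. The same pair of values was 2.49 and 3.17 in GFP 2, and 2.59 and 3.59 in GFP 3. Both FLAG 1 and GFP 3 had their innermost case at the right tip of X, at chrX:17718797-17718850 and chrX:17718791-17718847 (ce10), while the nearest excluded X peak of each of the 3 lists lay at the left tip, starting between positions 51 and 127. Every member had a fold above 2. Of all 446 deposited X peaks, 63 in FLAG 1, 64 in GFP 2 and 78 in GFP 3 lay above the limit and were left out.

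X took a different share of each list. In FLAG 1, 97 of the 649 low-background peaks were on X, or 14.9% (95% Wilson interval 12.4 to 17.9). In GFP 2 it was 120 of 565, or 21.2% (interval 18.1 to 24.8), and in GFP 3 it was 24 of 76, or 31.6% (interval 22.2 to 42.7). X made up 17.7% of the summed spans of the 6 chromosomes, a span running from the first to the last base of any deposited peak. X was thus below its part of the spans in FLAG 1 and above it in both GFP libraries, although the FLAG 1 interval reaches that part. The side was not the same under every setting. The FLAG 1 share was 20.5% among peaks above 4-fold and 19.9% among those with a background within 2% of the genome mean, and the GFP 3 share was 16.7% with peaks of 150 bp or less left out. These intervals, and all that follow, cover counting error alone, and neighbouring peaks are not independent.

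Over all low-background peaks, density put X at opposite ends of the chromosomes. FLAG 1 had 5.47 low-background X peaks per Mb, the lowest of its 6 chromosomes, against 5.64 to 8.49 on the autosomes. The margin to chromosome V, at 5.64, was small, and the rank depended on the background limit. Of the FLAG 1 peaks with a background within 2% of the genome mean, X had 65 and single autosomes 41 to 64, so X was not the lowest there. GFP 2 had 6.77 per Mb on X, its highest, against 4.25 to 6.51 on the autosomes. GFP 3 had 1.35 per Mb on X, also its highest, against 0.532 to 0.800. FLAG 1 and the GFP libraries differ in antibody, and with 1 FLAG library the antibody and the library cannot be told apart.

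X peaks were a little stronger than autosomal peaks in FLAG 1 and GFP 2 and weaker in GFP 3. The median fold in FLAG 1 was 3.30 on X (quartiles 2.94 and 4.55, highest 10.4) against 3.18 on the autosomes (quartiles 2.69 and 4.03, highest 11.3). In GFP 2 it was 3.87 on X (quartiles 3.14 and 4.87, highest 19.8) and 3.51 on the autosomes (quartiles 3.06 and 4.33, highest 18.8). In GFP 3 it was 3.32 on X (quartiles 3.15 and 4.0, highest 6.54) and 3.84 on the autosomes (quartiles 3.16 and 5.76, highest 15.5). In each list most X folds lay within the autosomal range, so the groups overlapped.

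As a difference of medians on the log2 scale, X minus autosomes came to 0.055 for FLAG 1, 0.14 for GFP 2 and -0.21 for GFP 3. The mean over the 3 libraries was -0.0029 ± 0.18 (SD, n = 3), and an exact two-sided sign-flip permutation test over the libraries gave p = 1.0. With 3 libraries that test cannot go below 0.25. In FLAG 1, 59 of the 97 X peaks lay above the autosomal median of the list (60.8%, interval 50.9 to 69.9). GFP 2 had 70 of 120 above it (58.3%, interval 49.4 to 66.8) and GFP 3 had 7 of 24 (29.2%, interval 14.9 to 49.2). With peaks of 150 bp or less left out, the differences were 0.027, 0.0 and -0.093 in the same order of libraries.

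**Figure D1:**
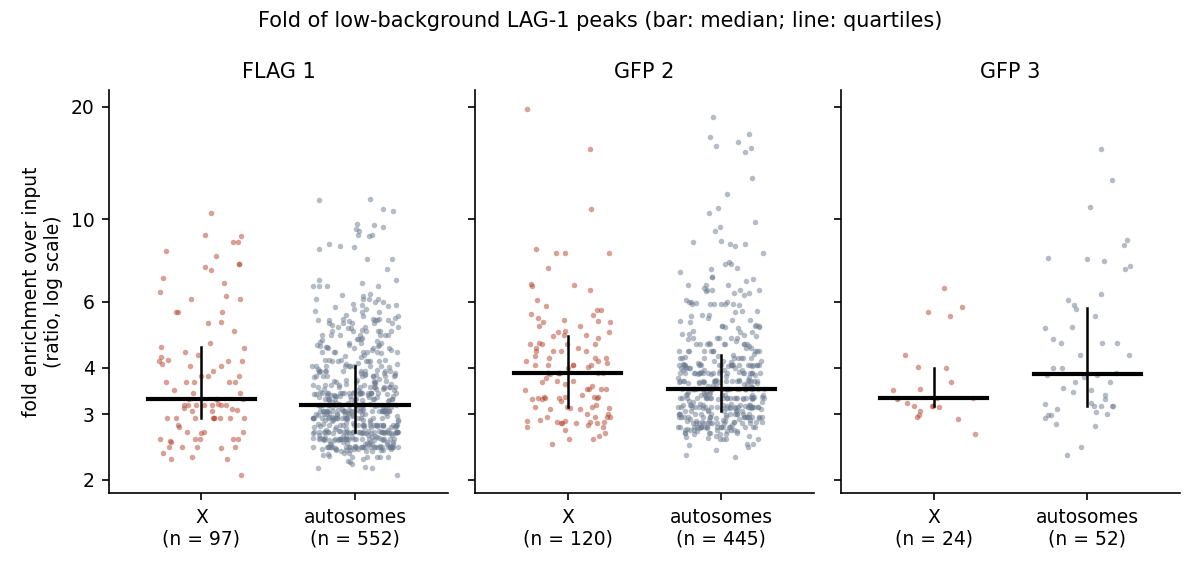
Fold enrichment over input (log axis) of each low-background peak on X and on the autosomes, 1 panel per IP library. Bars are medians and vertical lines run between the quartiles. The X median stands above the autosomal one in FLAG 1 (3.30 against 3.18) and GFP 2 (3.87 against 3.51) and below it in GFP 3 (3.32 against 3.84), and the points overlap widely.

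Compared with each autosome in turn, X had the highest median fold in FLAG 1 (autosomes 3.06 to 3.23) and in GFP 2 (autosomes 3.38 to 3.63), and the fifth highest in GFP 3 (autosomes 3.16 to 5.19). The median −log10 q followed the same pattern. It was 5.79 on X against 4.07 to 5.14 on single autosomes in FLAG 1, 5.47 against 3.92 to 4.45 in GFP 2, and 3.35 against 2.49 to 14.0 in GFP 3. GFP 3 had 8 to 14 low-background peaks on each autosome, so its medians rest on few peaks.

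The upper end of the FLAG 1 list leaned towards X. Of the 97 X peaks, 23 had a fold above 5 (23.7%, interval 16.4 to 33.1), against 75 of 552 autosomal peaks (13.6%, interval 11.0 to 16.7). Of the 65 peaks in the top 10% of FLAG 1 by fold, 20 were on X (30.8%). In GFP 2, 25 of 120 X peaks passed 5-fold (20.8%, interval 14.5 to 28.9), against 73 of 445 autosomal peaks (16.4%, interval 13.3 to 20.1). GFP 3 ran the other way, with 4 of 24 X peaks above 5-fold and 17 of 52 on the autosomes, and no X peak among its top 8. Few X peaks were near the highest pileup that 1 tag per position and strand allows, with 2, 1 and 0 at 80% or more of it in FLAG 1, GFP 2 and GFP 3, so the folds on X were rarely bounded by it.

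Background differed between X and the autosomes in FLAG 1. There 65 of the 97 X peaks had a background within 2% of the genome mean (67.0%), against 47.5% of the autosomal peaks and 43.7% to 54.7% on single autosomes. In GFP 2 the share was 45.0% on X and 45.4% on the autosomes, and in GFP 3 it was 58.3% and 48.1%. A lower background raises the fold of a given pileup. Among the FLAG 1 peaks within 2% of the genome mean, the X minus autosome difference of median log2 folds was 0.107, beside 0.055 over all its low-background peaks. The part of background in the FLAG 1 difference was not tested. The median pileup of FLAG 1 was 31 tags on X and 27 to 30 on single autosomes.

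X peaks of FLAG 1 were found again in GFP 2 more often than its autosomal peaks. Of the 97 X peaks, 53 overlapped a low-background GFP 2 peak by at least 1 bp, or 54.6%, where 35.4% of all low-background FLAG 1 peaks did so. On the autosomes it was 177 of 552, or 32.1%, and single autosomes ran from 29.7% to 42.0%, the last on chromosome II. The difference of 22.6 percentage points had a 95% Newcombe interval of 11.9 to 32.8. GFP 2 had more low-background peaks than FLAG 1 on X (120 against 97) and fewer on the autosomes (445 against 552). Read from the GFP 2 side, the shares were 44.2% on X and 38.9% on the autosomes. How far the make-up of the lists accounts for the gap was not tested. By the fold of the FLAG 1 peak alone, with the GFP 2 list left whole, X stood above the autosomes at each strength. The shares were 43.8% against 27.5% among peaks of 3-fold or less and 55.2% against 31.3% between 3-fold and 4-fold. Above 4-fold they were 63.9% against 40.7%. With both lists cut to peaks above 4-fold, they were 55.6% (20 of 36) against 32.1% (45 of 140). With lists of equal length, cut to the highest folds, the difference was 4.29 points (8 of 20 X peaks, 20 of 56 autosomal peaks).

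**Figure D2:**
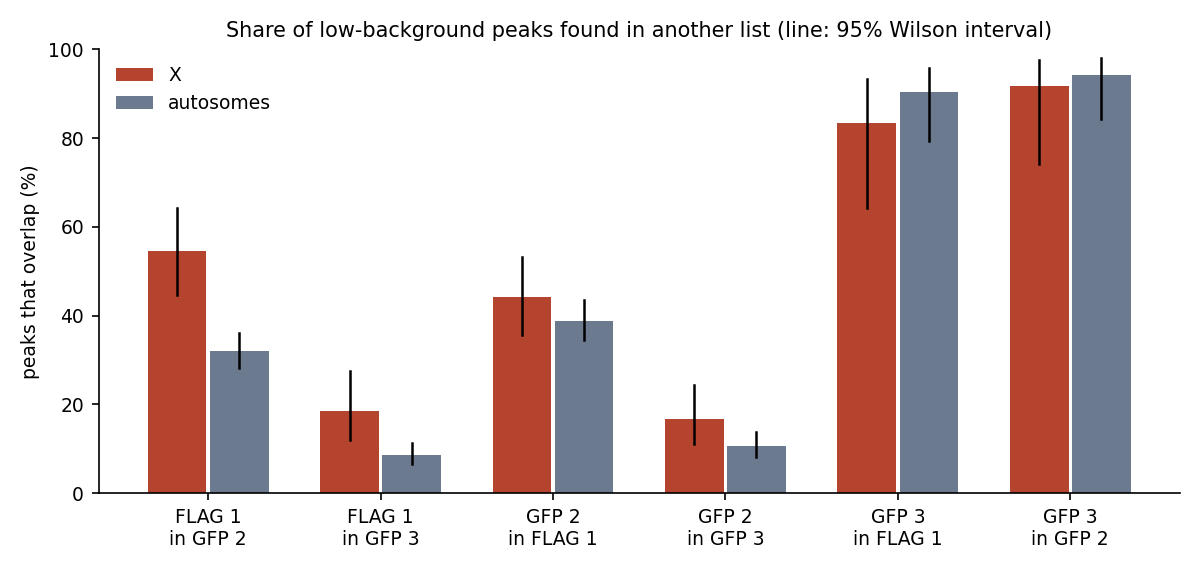
Share (%) of low-background peaks of the first list that overlap a low-background peak of the second, X beside autosomes, for each ordered pair of lists. Vertical lines are 95% Wilson intervals. The pair FLAG 1 in GFP 2 shows the widest gap, 54.6% on X and 32.1% on the autosomes.

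The other pairs with all low-background peaks showed smaller gaps. FLAG 1 peaks overlapped GFP 3 in 18 of 97 cases on X (18.6%) and in 48 of 552 on the autosomes (8.70%), beside 10.2% over the list, a difference of 9.86 points (interval 2.86 to 19.0). With peaks of 150 bp or less left out, the shares were 13.2% on X (5 of 38) and 13.2% on the autosomes (27 of 204). X was the lower with both lists cut to peaks above 4-fold (8.33% against 12.1%), which left 6 X peaks in GFP 3. It was also the lower with lists of equal length (20% against 23.2%). GFP 2 peaks overlapped FLAG 1 in 53 of 120 cases on X (44.2%) and 173 of 445 on the autosomes (38.9%), beside 40.0% over the list, and the interval of the difference held 0 (-4.44 to 15.3 points). GFP 2 peaks overlapped GFP 3 in 20 of 120 cases on X (16.7%) and 47 of 445 on the autosomes (10.6%), beside 11.9% over the list. The interval of the difference again held 0 (-0.35 to 14.2 points). X was the lower without peaks of 150 bp or less in both lists (11.5% against 16.8%) and with lists of equal length (50% against 51.7%). It was also the lower with both lists cut above 4-fold (10.7% against 14.6%) or at a −log10 q above 5 (12.3% against 14.4%). By the fold of the GFP 2 peak alone, GFP 2 peaks overlapped FLAG 1 in 20% of cases on X and 17.4% on the autosomes at 3-fold or less. The shares were 20.5% and 29.7% between 3-fold and 4-fold, and 71.4% and 65.6% above 4-fold. With both lists cut above 4-fold they were 37.5% and 29.8%. With lists of equal length the difference of GFP 2 in FLAG 1 was 9.96 points (8 of 18 X peaks, 20 of 58 autosomal peaks), more than that of FLAG 1 in GFP 2. GFP 3 peaks overlapped FLAG 1 in 20 of 24 cases on X and 47 of 52 on the autosomes (88.2% over the list), and GFP 2 in 22 of 24 and 49 of 52 (93.4% over the list). The other lists were longer. With all cut to equal length, GFP 3 peaks overlapped FLAG 1 in 29.2% of cases on X and 25% on the autosomes, and GFP 2 in 37.5% and 61.5%. All 3 lists were called against the same input, which can itself give shared peaks, and its part in these overlaps was not tested.

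Overlapping peaks were merged into regions, which gave 163 on X and 810 on the autosomes. Of the X regions, 18 held a low-background peak of every library (11.0%, interval 7.10 to 16.8), where 6.17% of all regions did, against 42 of the autosomal regions (5.19%, interval 3.86 to 6.93). Single autosomes ran from 4.0% to 7.14%. FLAG 1 and GFP 2 without GFP 3 shared 33 X regions (20.2%) and 122 autosomal ones (15.1%). Regions of FLAG 1 alone made up 26.4% on X (43 regions) and 45.8% on the autosomes (371 regions), a difference of -19.4 points (interval -26.5 to -11.4). Regions of GFP 2 alone made up 40.5% (66) and 33.0% (267). GFP 3 alone gave 1 X region, and 1 region each joined GFP 3 with FLAG 1 and with GFP 2. A smaller share of the X regions was thus seen in FLAG 1 alone, the list with the lowest share of its peaks on X (14.9%). How far the X share of each list accounts for these classes was not tested. With peaks of 150 bp or less left out, 5 X regions held all 3 libraries.

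The regions of all 3 libraries were led by 3 in the right part of X, when its span is cut into 3 equal parts. At chrX:14790191-14790884 FLAG 1 had a fold of 9.0, GFP 2 had 19.8 and GFP 3 had 5.80, with pileups of 89, 107 and 57 tags. At chrX:15741247-15741950 the folds were 6.24, 10.7 and 6.54 in the same order, the last being the highest of GFP 3 on X. At chrX:13104771-13105293 they were 8.19, 15.4 and 5.49, and the 3 summits lay at 13105007, 13105004 and 13105018. These 3 were high in every library, and each stood above 5-fold in all of them.

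A further 6 lay to the right of the middle part. At chrX:14525680-14526036 the folds were 3.18 in FLAG 1, 7.38 in GFP 2 and 5.65 in GFP 3, so FLAG 1 was near the middle of its list where both GFP libraries were high within theirs. At chrX:16929777-16931901, the widest X region at 2125 bp, FLAG 1 reached 8.66-fold, GFP 2 5.44-fold and GFP 3 3.14-fold, and GFP 3 alone was low within its list. This region held 8 peaks, 4 of them from GFP 3, and without it GFP 3 had 20 X peaks. The remaining 4 ranked lower by the mean percentile of fold within the lists. At chrX:15707257-15707881 the folds were 3.18, 5.86 and 4.01 in the order FLAG 1, GFP 2, GFP 3, and at chrX:16056451-16056672 they were 3.67, 5.72 and 3.29. At chrX:11937330-11937618 they were 2.69, 4.06 and 3.16, and at chrX:17505673-17506099 they were 2.06, 4.24 and 3.16, with a FLAG 1 background of 2.09 times the genome mean at the last.

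The middle part held 6 such regions. At chrX:8675976-8676414 the folds were 3.30 in FLAG 1, 8.12 in GFP 2 and 4.32 in GFP 3, with FLAG 1 and GFP 2 summits 1 base apart, at 8676238 and 8676237. At chrX:6296331-6296792 they were 3.20, 6.09 and 3.50, and at chrX:11093901-11094279 they were 3.67, 4.13 and 3.99. These were even across the libraries apart from the higher GFP 2 values. At chrX:9465599-9465900 the folds were 3.06, 4.61 and 3.32, at chrX:8036226-8036391 they were 2.45, 5.17 and 3.32, and at chrX:10766080-10766539 they were 3.17, 3.33 and 2.96. The last had the highest GFP 2 background of any member, 2.49 times the genome mean.

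The left part held 3. At chrX:3087628-3088037 the folds were 4.16 in FLAG 1, 8.30 in GFP 2 and 2.99 in GFP 3, with pileups of 33, 44 and 17 tags. At chrX:1627044-1627249 they were 3.18, 3.83 and 3.49, and at chrX:2996991-2997264 they were 3.67, 3.63 and 3.16. None of the 3 passed 5-fold in FLAG 1 or GFP 3.

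**Figure D3:**
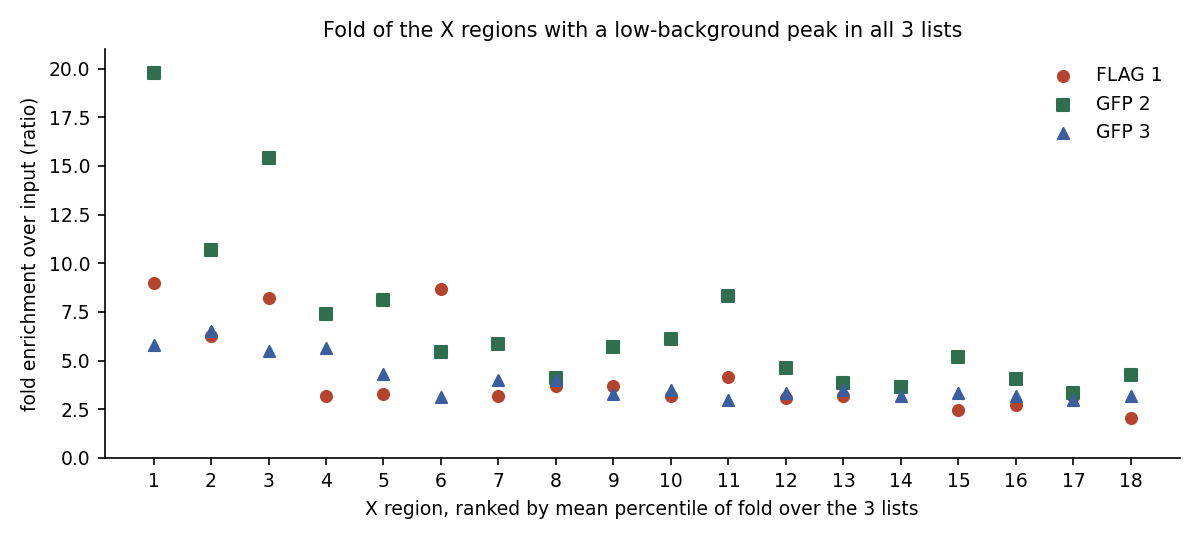
Fold enrichment over input (ratio) in each library for the 18 X regions with a low-background peak in all 3 lists, ranked by the mean percentile of fold within the lists. The first 3 stand above 5-fold in every library, and the GFP 2 value reaches 19.8 at the first. The scale of fold differs between libraries, so heights are to be compared within a library.

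On X, peaks in these regions did not have the highest median fold of FLAG 1. That median was 3.19 (20 peaks), against 4.12 for X peaks in regions of 2 libraries (34 peaks) and 3.30 for X peaks of FLAG 1 alone (43 peaks). On the autosomes the same 3 medians were 3.78, 3.18 and 3.08. In GFP 2 the order was the same on both, at 5.44, 4.50 and 3.32 on X and 6.67, 3.91 and 3.32 on the autosomes. For GFP 3 the median over such regions was 3.32 on X (21 peaks) and 4.16 on the autosomes (44 peaks). Across regions shared by FLAG 1 and GFP 2, Spearman's rho of the folds was 0.42 on X (51 regions) and 0.53 on the autosomes (164 regions), values that share 1 input.

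The X regions shared by FLAG 1 and GFP 2 without GFP 3 were 61 to 718 bp wide and were divided at 150 bp. That limit was set after the widths were seen, and whether it parts 2 kinds was not tested. Of the 33, 16 were 150 bp wide or less. None of the 18 X regions of all libraries was so narrow (widths 166 to 2125 bp, median 418.5), and none of the 42 autosomal ones (190 to 1634 bp, median 407.5). Joining more peaks can only widen a region. The narrow ones had a median FLAG 1 fold of 6.11 (3.06 to 7.95) and a median GFP 2 fold of 4.94. The 17 wide ones had 2.94 (2.31 to 5.3) and 4.24. In 15 of the 16 narrow regions the FLAG 1 and GFP 2 summits lay within 10 bases of each other, and in 2 of the 17 wide ones. The median distance was 2.5 bases in the narrow ones. On the autosomes, 22 of 39 narrow regions and 13 of 83 wide ones had summits within 10 bases, with a median of 8 bases in the narrow ones. A narrow region leaves little room for distance, and how far that accounts for the closeness was not tested.

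The strongest of the narrow X regions had high folds and close summits. At chrX:16595893-16596018 the fold was 7.58 in FLAG 1 and 8.12 in GFP 2, with summits at 16595969 and 16595968. At chrX:2576648-2576728 the folds were 7.42 and 6.71, with summits at 2576690 and 2576688, and at chrX:8326541-8326630 they were 7.58 and 6.46. These regions were 81 to 126 bp wide, where the caller used fragment lengths of 53 and 58 bp. At chrX:5283257-5283375 the folds were 6.12 in FLAG 1 and 6.64 in GFP 2, at chrX:4982077-4982156 they were 7.32 and 5.29, and at chrX:1224248-1224310 they were 6.36 and 5.17. The pileups at the last were 51 tags in FLAG 1 and 27 in GFP 2. Fold was above 5 in FLAG 1 at each of these 6, and no GFP 3 peak of low background overlapped any.

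Others of the first 10 by mean percentile were also mostly narrow. At chrX:12757985-12758112 the folds were 6.97 in FLAG 1 and 4.98 in GFP 2. At chrX:13496147-13496225 they were 5.63 and 5.53, with both summits at 13496188, and at chrX:16339289-16339355 they were 5.63 and 4.50, with both summits at 16339318. The exception was chrX:3334068-3334487, which was 420 bp wide, with 4.28-fold in FLAG 1 and 8.12-fold in GFP 2 and summits at 3334323 and 3334239.

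Narrow shared regions were present on the autosomes too, with lower FLAG 1 folds. There 39 of the 122 regions of FLAG 1 and GFP 2 were 150 bp wide or less (32.0%, against 48.5% on X). Their median FLAG 1 fold was 3.30, with 16 of 39 above 5-fold, against 6.11 and 12 of 16 on X. The wide ones had medians of 3.20 on the autosomes and 2.94 on X. Counted by peak, FLAG 1 had 14 peaks above 5-fold and 150 bp wide or less on X, and 4, 7, 6, 10 and 2 on chromosomes I to V. Its wide peaks above 5-fold numbered 9 on X and 6 to 12 on single autosomes. Of the wide FLAG 1 peaks, 23.7% passed 5-fold on X (9 of 38) and 22.5% on the autosomes (46 of 204), and of the narrow ones 23.7% (14 of 59) and 8.33% (29 of 348). The lean of strong FLAG 1 peaks towards X thus lay among the narrow peaks. What sequence lies under the narrow peaks was not analysed here, and whether they mark LAG-1 binding sites was not tested.

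**Figure D4:**
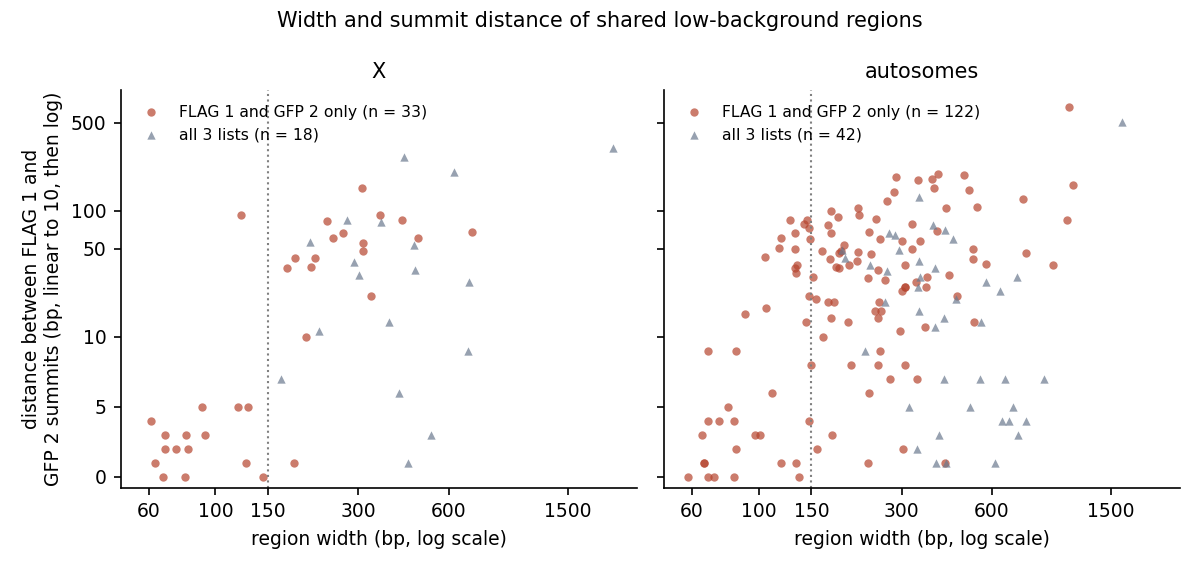
Width (bp, log axis) of each region shared by FLAG 1 and GFP 2 against the distance (bp) between the summits of those libraries, on X and on the autosomes. Circles are regions without GFP 3, triangles are regions of all 3 lists, and the dotted line marks 150 bp. On X, 15 of the 16 regions of 150 bp or less lie at 10 bases or less, and on the autosomes 22 of 39. The 18 triangles on X and the 42 on the autosomes all lie to the right of the line.

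Over all regions shared by FLAG 1 and GFP 2, the median summit distance was 27 bases on X and 27 on the autosomes. Between GFP 2 and GFP 3 it was 45 bases on X (19 regions) and 15 on the autosomes (47 regions), and between FLAG 1 and GFP 3 it was 19 (19 regions) and 16 (45 regions).

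Some X peaks were strong in 1 library and not called in the others. In FLAG 1 the first was chrX:1503769-1504578, at 10.4-fold with a pileup of 84 tags. A GFP 2 peak of 3.49-fold at chrX:1504620-1504700 began 42 bases beyond its end, so GFP 2 was enriched beside it. The second, chrX:4147334-4148040, had 9.05-fold in FLAG 1, and the nearest GFP 2 peak lay 1618 bases away. It was part of the group with the most X regions, 5 within chrX:4142218-4148040, of which 4 held a GFP 2 peak alone. The third, chrX:17419791-17420727, had 8.68-fold and no GFP 2 peak within 84946 bases. The fourth, chrX:15382331-15382452, had 6.73-fold, and the fifth, chrX:10694341-10694399, had 5.63-fold. The fourth and the fifth were narrow, at 122 and 59 bp, and the first 3 were wide, at 707 to 937 bp.

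GFP 2 alone had weaker leaders. The first pair were neighbours, chrX:1454363-1454594 at 5.71-fold and chrX:1454665-1454848 at 5.57-fold, both with a background of 1.36 times the genome mean, and the nearest FLAG 1 peak was 8085 bases from the first. Next came chrX:13158991-13159079 at 5.33-fold, chrX:13532677-13532736 at 5.0-fold and chrX:1344973-1345101 at 4.80-fold. The single region of GFP 3 alone, chrX:16056374-16056436 at 3.32-fold, ended 15 bases before a GFP 2 peak that belongs to a region of all libraries. Each GFP 3 member thus overlapped a peak of another list, lay in a region that held one, or lay within 15 bases of such a region. With GFP 2 it shared chrX:12362968-12363254, at 4.50-fold in GFP 2 and 3.66-fold in GFP 3, and with FLAG 1 it shared the right tip, chrX:17718791-17718850, at 2.52-fold in FLAG 1 and 3.21-fold in GFP 3.

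Along X, the right part held more peaks than the left or the middle part in each library. Cut into 3 equal parts, the span of X held 28, 26 and 43 FLAG 1 peaks from left to right, so the right part had 44.3% (interval 34.8 to 54.2). In GFP 2 they held 35, 36 and 49 (40.8% on the right, interval 32.5 to 49.8), and in GFP 3 they held 3, 6 and 15 (62.5%, interval 42.7 to 78.8). The GFP 2 interval reaches an even share, and 4 of the 15 GFP 3 peaks lay in the region chrX:16929777-16931901. Of the regions in all 3 libraries, 3, 6 and 9 lay in the left, middle and right parts. With peaks of 150 bp or less left out, the right part held 34.2% of the FLAG 1 peaks, 40.4% of the GFP 2 peaks and 50% of the 6 that remained in GFP 3. The X peaks of raised background, over the 3 lists, ran the other way, with 99 of 205 in the left part, 79 of them in the first Mb.

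**Figure D5:**
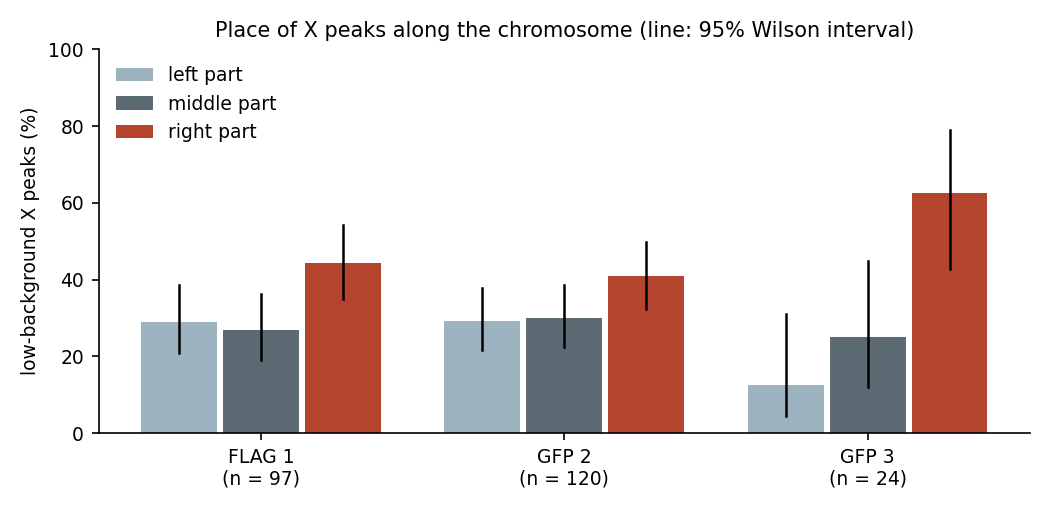
Share (%) of the low-background X peaks of each library in the left, middle and right of 3 equal parts of the span of deposited X peaks, with 95% Wilson intervals. The right part is highest in each library, at 44.3% in FLAG 1, 40.8% in GFP 2 and 62.5% in GFP 3.

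In windows of 1 Mb the X regions were spread over the whole chromosome, with 3 to 17 in each of 18 windows and a median of 8.5. The fullest was the fifth, from 4 to 5 Mb, with 17 regions, 11 FLAG 1 peaks and 12 GFP 2 peaks, but no GFP 3 peak and so no region of all libraries. The window from 13 to 14 Mb followed with 16 regions and the most GFP 2 peaks, 13. GFP 3 was fullest from 16 to 17 Mb, with 6 peaks, 4 of them in the region of 2125 bp. Neighbouring X regions were a median of 56014 bases apart, within the 40952.5 to 75317 bases of single autosomes, and 17.9% of the gaps on X were under 5000 bases, against 16.1% to 29.5%. Such short gaps joined 50 of the 163 X regions into 21 groups, of which 16 were pairs. The largest gap ran from 6841088 to 7527686. Members seldom lay near peaks of raised background, with 1 in FLAG 1 (1.03%), 0 in GFP 2 and 1 in GFP 3 (4.17%) within 5000 bases of one. The low-background autosomal peaks were much the same, at 1.45%, 0.449% and 5.77%.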

How the data were processed

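The 4 libraries were 3 LAG-1 IPs and 1 input, with a separate peak list for each IP. MACS 2.1.0.20140616 was run by the authors on each IP against the shared input, per the file headers, at a q-value limit of 0.05, with 1 tag kept per position and the larger library sampled down. The deposited pileup is a signal in tags, the deposited fold is a ratio of pileup to local background, and the deposited significance is a −log10 of the q-value. Coordinates are ce10, a build named in the submitters' processing notes. The sources used here name no aligner. The fragment length in the headers, 48 to 58 bp, is near the tag size of 49 bp and sets pileups and widths.

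Background came from pileup and fold, and Poisson p-values computed from it matched the deposited −log10 p-values within 6.08e-05. The genome mean was kept tags times fragment length over the effective genome size in the headers. Peaks with several summits counted once. Regions joined overlapping or touching peaks. Shares carry 95% Wilson intervals and differences of shares 95% Newcombe intervals. The test over libraries was the exact sign-flip permutation test. The scripts were checked on simulated lists. Named regions were every X region of all 3 lists, the first 10 of FLAG 1 and GFP 2 by mean percentile of fold, the first 5 of each list alone and those joining GFP 3 to 1 other list. Members, lists and limits were chosen with earlier results of these data known. No genome or annotation of ce10 was used, so sequences, the CSL motif and genes were not analysed here. The tools were scipy 1.17.1, statsmodels 0.14.6, pandas 2.3.3, numpy 2.4.6 and matplotlib 3.10.9 under Python 3.11.15.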

Additional observations from a re-analysis of the deposited data

Results flagged for a closer look

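The deposited X peaks that the comparisons left out, because their background was above 3 times the genome mean, were 63 FLAG 1 peaks, 64 GFP 2 peaks and 78 GFP 3 peaks. Each was called above the input by the authors' caller, and their median folds were 1.68, 2.53 and 2.07.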

How the results depend on the processing

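Over 258 alternative values, 205 stayed within a set limit, 45 moved further, and 8 of the mean X minus autosome log2 fold, which was near 0, changed sign. The limit was the interval for a share, 1.5 times for a count and the side of 0 for the mean. For the difference of a single library it was the SD over the libraries, which is not an error of that value. The 1 moved difference in each library was in −log10 q set against log2 fold, which is not a like comparison. That mean was 0.0041 and 0.020 with background limits of 2 and 5 times the genome mean, 0.036 within 2% of the mean, 0.019 with the summit of highest fold, 0.0090 above 4-fold, 0.0074 without pileups at 80% or more of the highest, 0.0090 without the region of 4 GFP 3 peaks, and -0.076 to 0.0997 with 1 library left out, the last without GFP 3. The cause was not tested. Within a single library the sign also changed in GFP 2 above 4-fold (-0.013), by less than the spread over the libraries. X peaks of FLAG 1, GFP 2 and GFP 3 numbered 36, 56 and 6 above 4-fold, and 55, 65 and 9 where −log10 q passed 5. They numbered 38, 52 and 6 with peaks of 150 bp or less left out. Within 2% of the genome mean GFP 2 had 54 and GFP 3 had 14. The share of X was 20.5%, 27.1% and 20.7% above 4-fold, 26.5% in GFP 2 at a −log10 q above 5, 19.9% in FLAG 1 within 2% of the mean, and 16.7% in GFP 3 without narrow peaks. X peaks above the autosomal median were 68.5% of GFP 2 within 2% of the mean, and 48.1% of GFP 2 and 50% of GFP 3 without narrow peaks.

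X peaks of FLAG 1 in GFP 2 were 32.3% within 2% of the mean and 40% with lists of equal length, and X stayed above the autosomes in all 13 alternatives (by 4.29 to 23.7 points). With both lists cut above 4-fold, FLAG 1 in GFP 3 was 8.33% and GFP 2 in GFP 3 was 10.7%, and the latter was 50% with lists of equal length. The limits on fold here are on both lists. X was above the autosomes in 10 of 13 alternatives for FLAG 1 in GFP 3 and in 9 of 13 for GFP 2 in GFP 3. GFP 3 in FLAG 1 was 50% within 2% of the mean and above 4-fold, 62.5% with summits within 100 bp and 29.2% with lists of equal length. GFP 3 in GFP 2 was 50%, 100%, 62.5% and 37.5% under the same settings, and 100% without narrow peaks. X regions in all 3 lists numbered 5 within 2% of the mean, 3 above 4-fold, 7 at a −log10 q above 5 and 5 without narrow peaks. With 1 library left out, regions of both others were 17 to 51, the last without GFP 3. The right part of X held 50% of GFP 2 and 83.3% of GFP 3 above 4-fold, and 34.2% of FLAG 1 without narrow peaks. Narrow X regions of FLAG 1 and GFP 2 were 11 and 20 with limits of 100 and 200 bp. The settings on narrow peaks, the left-out region and the width limits were chosen after seeing the data. FLAG and GFP IPs could not be paired with each other, because the peak lists share no replicate numbers in the labels. The sign-flip test used differences taken within each library. GFP 3, with 24 X peaks, limits every statement that rests on it.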
